A study of Mus musculus with 3 samples.

Results

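The clustered protocadherin genes of mouse are the 57 protein-coding genes of the annotation whose symbols start with Pcdha, Pcdhb or Pcdhg, out of 21938 protein-coding genes. They comprise 14 alpha, 22 beta and 21 gamma genes, all on the plus strand of chromosome 18 (mm10). The members were chosen by symbol alone, and no measured value entered the rule. A polymorphic pseudogene, Pcdhgb8, was left out. The annotation gives the symbol Pcdha11 to 2 of the records, and the one with the identifier ENSMUSG00000007440.10 is called Pcdha10 here, its RefSeq name. Chromatin accessibility was measured in single nuclei of wild-type mouse embryos of the strain C57BL/6JRj, with 1 library for each of the embryonic stages E12.5, E13.5 and E15.5 (days after conception). The nuclei came from frozen sections of littermates of the embryos used for spatial profiling and were sorted with the DNA dye 7-AAD. The number of embryos behind a library was not given in the sources used here, and no embryo was treated or carried a transgene.

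Clustered protocadherins are adhesion proteins of the cell surface that bind the same isoform on a neighbouring cell. Each neuron chooses a few of the many variable promoters, largely at random, and the resulting set of isoforms lets its branches tell themselves from those of other neurons. The alpha and gamma genes each bring their own first exon, which is spliced to constant exons shared by the whole subfamily, whereas a beta gene is a single exon. The last genes of the alpha and gamma arrays, known as C-type genes, are regulated apart from the variable ones. Promoter choice is known to involve DNA methylation, the insulator protein CTCF, the cohesin complex and enhancers within and beyond the arrays.

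The locus ran over 911.69 kb from the first alpha start to the last gamma exon. The alpha genes spanned chr18:36930184-37187661, the beta genes chr18:37264938-37524479 and the gamma genes chr18:37661793-37841873. The C-type starts lay at position 37090013 for Pcdhac1 and 37143503 for Pcdhac2, in the intron of the other alpha genes, and at 37806410, 37815079 and 37819513 for Pcdhgc3, Pcdhgc4 and Pcdhgc5. The alpha constant exons occupied 37156155 to 37156213, 37159265 to 37159353 and 37184946 to 37187657. The gamma constant exons occupied 37825021 to 37825079, 37833265 to 37833353 and 37839903 to 37841873. The promoter of a gene was the window from 1000 bp before to 100 bp after the start of its first exon.

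The deposited assignment of nuclei to clusters was used, without clusters 2 and 4, which left 83, 809 and 558 nuclei with 8332004, 65367015 and 38533051 unique fragments. Where 3 values are given in a row, they stand for E12.5, E13.5 and E15.5 in this order. Clusters 0 and 6 together were called neuron-like (401 nuclei, of which 16, 163 and 222 came from the 3 stages). Markers were counted over the gene body and 2 kb upstream, and one was called raised at 1.5 times or more the pooled level of the other clusters used. All 7 of 7 neuron markers and 2 of 7 neural progenitor markers (Sox2 and Sox1) were raised in cluster 0, and cluster 6 had 6 of 7 neuron markers and 4 of 7 neural progenitor markers raised. Cluster 9 was neural progenitor-like (81 nuclei, 7 of 7 markers raised), cluster 1 mesenchyme-like (255 nuclei, 7 of 7) and clusters 5 and 11 erythroid-like (229 nuclei, 8 of 8 in each). Cluster 3 (208 nuclei) was left unnamed. All 7 of 7 mesenchyme markers were raised there too, by 1.53 to 1.91 times against 1.99 to 3.51 times in cluster 1, but its leading genes included Pnliprp1, Ftcd and Ugt1a1 and none of these markers. The leading genes of cluster 0 held no listed neuron marker either, but included the neuronal genes Nefl, Gad2 and Slc32a1. The libraries were uneven: 201 of the 229 erythroid-like nuclei came from E13.5, and 1 barcode was shared between libraries, E13.5 and E15.5. Promoter values are given as unique fragments per 1000000 promoter fragments of the same nuclei and library (CPM). A fragment that overlapped the windows of several genes was counted for each of them, also in the total. A single fragment in neuron-like nuclei was thus worth 6.49, 0.702 and 0.525 CPM in the 3 libraries. The intervals given are exact 95% intervals that cover counting error only. The mean ± SD is taken over the 3 libraries, which are also the 3 stages.

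In neuron-like nuclei the C-type promoters carried most of the accessibility of the alpha array, and the variable promoters had few fragments each. Pcdhac1 was found at 39.0, 33.7 and 26.2 CPM (33.0 ± 6.39, SD, n = 3). Pcdhac2 was found at 32.5, 14.04 and 24.1 CPM (23.6 ± 9.23). The next alpha gene in the order of means, Pcdha12, had 1, 7 and 7 fragments in the 3 libraries, or 5.03 ± 1.41 CPM. The libraries of Pcdhac1 and Pcdhac2 overlapped each other, and every library of both lay above those of Pcdha12. At the low end Pcdha10, Pcdha3 and Pcdha8 averaged 1.34, 0.818 and 0.409 CPM, each with 0 fragments at E12.5, where 0 fragments allow up to 19.5 CPM (3 fragments). Neighbours among the 12 variable alpha genes could not be ordered beyond their spread.

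The gamma array had the same shape, with Pcdhgc3 as its highest promoter. Pcdhgc3 was found at 51.9, 61.1 and 50.9 CPM in neuron-like nuclei (54.6 ± 5.59), above all other members in each of the 3 libraries apart from Pcdhgc4, whose value at E12.5 was equal to it. Pcdhgc4 reached 51.9, 27.4 and 26.8 CPM (35.4 ± 14.4). Pcdhgc5 was lower, with 32.5, 15.4 and 10.5 CPM (19.5 ± 11.5), and its range overlapped that of Pcdhgc4. Among the variable gamma genes Pcdhga11 stood at 19.5, 17.6 and 8.40 CPM (15.1 ± 5.92), and the lowest means were those of Pcdhga8 (2.04 CPM), Pcdhgb4 (1.58) and Pcdhga5 (1.35). The E12.5 values rest on 8 or fewer fragments each.

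The beta genes showed the lowest accessibility of the 3 subfamilies in neuron-like nuclei. The highest by mean, Pcdhb2, had 2, 3 and 4 fragments in the 3 libraries (5.73 ± 6.28 CPM), and its mean rested mainly on the 2 fragments of the shallow E12.5 library. Pcdhb14 and Pcdhb21 followed with means of 3.86 and 2.69 CPM, and Pcdhb9, Pcdhb11 and Pcdhb12 (0.584 CPM each) and Pcdhb22 (0.234) came last. The order by means rests on single fragments of the E12.5 library: Pcdhb21 had 4 fragments in all, and with libraries pooled Pcdhb3, with 13 fragments (3.73 CPM), was the highest. Neighbours in the order overlapped in their library values. Over all 57 genes and pooled libraries, the median promoter of the family was at 2.87 CPM in neuron-like nuclei, against 22.1 CPM for the median of all 21938 promoters. Only Pcdhac1, Pcdhgc3 and Pcdhgc4 lay above that median of all promoters. In mesenchyme-like nuclei 1 of the 57 did, and in cluster 3 there were 2.

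**Figure D1:**
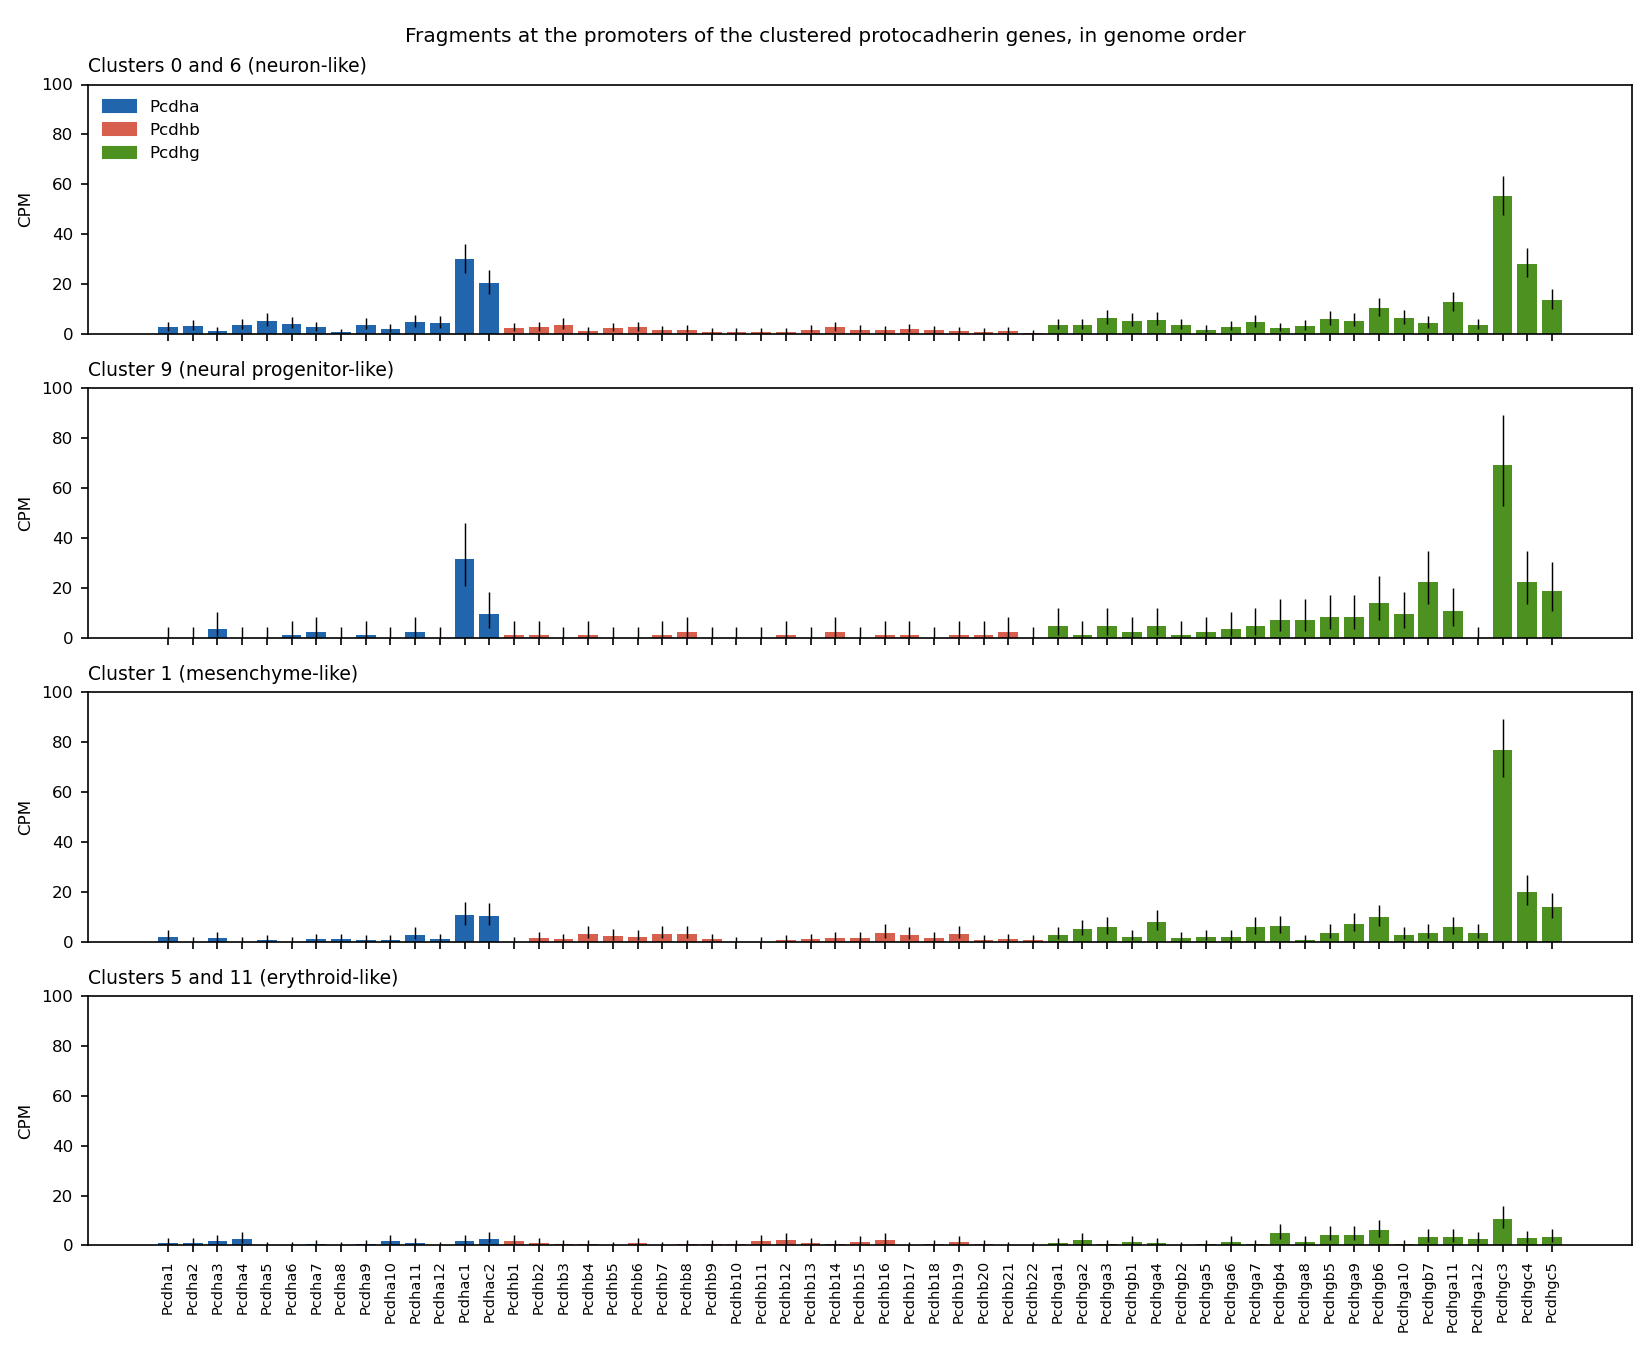
Bars give the pooled fragments of the 3 libraries at each of the 57 promoters, in genome order and in CPM (per 1000000 promoter fragments), with exact 95% counting intervals, for 4 groups of nuclei. Pcdhac1 stands at 29.9 CPM in neuron-like and 10.7 in mesenchyme-like nuclei, whereas Pcdhgc3 stands at 55.1 and 76.8.

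The summed CPM of the alpha promoters was higher in neuron-like nuclei than in every other group of clusters compared here, whereas that of the gamma promoters was not. Summed over its 14 promoters, the alpha array had 87.6 CPM (78.0 to 98.0) in neuron-like, 51.7 in progenitor-like, 30.6 in mesenchyme-like and 13.2 in erythroid-like nuclei, with all libraries pooled. By library the alpha sum was 90.9, 84.9 and 89.2 CPM in neuron-like nuclei at the 3 stages, and 25.1, 34.3 and 26.8 in mesenchyme-like nuclei, so that the libraries of these groups did not overlap. The beta sum was 35.6 CPM in neuron-like and 32.9 in mesenchyme-like nuclei. For the gamma genes the sum was 187 CPM in both.

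The ratio of neuron-like over mesenchyme-like nuclei was 2.86 (2.19 to 3.77) for the alpha sum, 1.08 (0.806 to 1.46) for the beta sum and 1.00 (0.884 to 1.13) for the gamma sum. Within the libraries the alpha ratio was 3.62, 2.48 and 3.33. It was 3.82 (2.42 to 6.31) for the 12 variable alpha promoters and 2.41 (1.74 to 3.40) for the C-type pair, and these intervals overlap. The higher alpha sum therefore included both kinds of promoter. Per fragment anywhere in the genome, rather than per promoter fragment, the ratio was 2.32 for alpha and 0.813 for gamma. The scales differ because promoter fragments, counted for each window, came to 12.1 per 100 fragments in neuron-like and 14.9 in mesenchyme-like nuclei. No p-value is given for a sum over members.

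Against erythroid-like nuclei the ratio was 6.62 (4.59 to 9.85) for alpha, 2.27 (1.56 to 3.35) for beta and 3.43 (2.84 to 4.17) for gamma. The median of all 21938 promoters differed in the same direction, at 22.1 CPM in neuron-like and 9.92 in erythroid-like nuclei. The part of this general difference in the 3 ratios was not tested. Without the E13.5 library, which held most erythroid-like nuclei, the alpha ratio was 9.98 and the beta ratio 8.89. Both rest on only 11 erythroid-like nuclei at E12.5 and 17 at E15.5, and no interval is given for them. Against the progenitor-like cluster 9 the ratio was 1.69 (1.23 to 2.38) for alpha, 2.02 (1.18 to 3.72) for beta and 0.825 (0.701 to 0.974) for gamma. Within alpha it was 3.53 (1.80 to 7.89) for the variable promoters and 1.22 (0.846 to 1.81) for the C-type pair. The alpha sum of clusters 0 and 6 differed little, with a ratio of 0.936 (0.738 to 1.19), and both clusters carried raised progenitor markers, 2 and 4 of 7. What those markers contribute to the alpha sum was not tested. In cluster 3 the beta genes summed to 86.1 CPM, and the ratio of neuron-like nuclei to it was 0.413 (0.323 to 0.528), or 0.675 (0.527 to 0.861) per fragment anywhere in the genome. The gamma sum was also higher there, with 448 of 1741435 promoter fragments against 652 of 3483604 in neuron-like nuclei. Per fragment anywhere in the genome (23539050 and 28851281) it was lower in cluster 3. The promoter share of cluster 3 was the lowest of these groups, at 7.40 promoter fragments, counted for each window, per 100 fragments. The part of that in the beta and gamma sums was not tested. The 3 comparisons share the neuron-like nuclei.

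Promoter by promoter, the pooled ratio of neuron-like to mesenchyme-like nuclei had a counting interval above 1 at 11 of 57 members and below 1 at 2. Of all 21938 promoters, 17.7% were above and 14.8% below by the same rule, so the share of the family above 1 was near the background and the share below 1 was under it. Most members had few fragments, which widens their intervals. The 11 comprised 8 alpha genes (Pcdha2, Pcdha4, Pcdha5, Pcdha6, Pcdha9, Pcdha12, Pcdhac1 and Pcdhac2), Pcdhb1, Pcdhga8 and Pcdhga11. Pcdha5 had 18 fragments in neuron-like nuclei and 1 in mesenchyme-like nuclei, and Pcdha6 had 14 and 0. The 2 below 1 were Pcdhgb4, with 8 and 14 fragments, and Pcdhgc3, with a ratio of 0.718 (0.581 to 0.886). Against erythroid-like nuclei 20 members were above 1 and 0 below, where 29.3% of all promoters were above and 19.9% below. Against cluster 3 only Pcdhac1 was above, and 12 members were below, against 14.1% and 25.9% of all promoters. Of the 12, 6 were beta genes, 4 variable gamma genes and 2 C-type gamma genes.

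Single promoters were tested with edgeR's quasi-likelihood test across all promoters with at least 30 summed fragments, with the library as a block. Of the 57 members 21 had enough fragments. No beta gene did, and of the variable alpha genes only Pcdha11 did. The clusters were defined by their depositors on the accessibility of these same nuclei, so that the test is not independent of how the groups were made. Of the 4 comparisons, 3 use the neuron-like nuclei and so share samples.

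Against mesenchyme-like nuclei 1 member passed an adjusted p of 0.05, where 5.36% of the 17545 promoters tested were higher and 5.52% lower. This was Pcdhac1, a C-type alpha gene, with 0, 14.6 and 6.96 CPM in mesenchyme-like nuclei (0 fragments at E12.5, which allow up to 37.6 CPM). Each neuron-like library of Pcdhac1 lay above each mesenchyme-like one. The log2 fold change was 1.66 (SE 0.56, adjusted p = 0.0303). It did not pass without E12.5 (1.41, adjusted p = 0.0519), without E13.5 (2.31, adjusted p = 0.285) or without E15.5 (1.599, adjusted p = 0.573), and over all alternatives the adjusted p ran from 0.0155 to 0.573. In progenitor-like nuclei Pcdhac1 had 8.21, 30.9 and 47.4 CPM, and neuron-like and progenitor-like libraries overlapped (log2 fold change 0.04, SE 0.55, adjusted p = 0.988). Progenitor-like against mesenchyme-like nuclei gave 1.62 (adjusted p = 0.139). Pcdhgc3 went the other way without passing (log2 fold change -0.44, SE 0.27, adjusted p = 0.356), with 50.2, 78.9 and 76.5 CPM in mesenchyme-like nuclei. When scaled by all fragments instead, Pcdhgc3 was the called member, lower in neuron-like nuclei (-0.77, adjusted p = 0.0420), and Pcdhac1 was not called. On that scale the median of all promoters moved from 0.0793 to -0.257 on the log2 scale.

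Against nuclei of the red blood cell lineage, the erythroid-like ones, 8 members were higher and 0 lower, where 21.6% of all promoters tested were higher and 11% lower. All 5 C-type genes were among the 21 tested, and 4 of them passed. Pcdhgc3 had 0, 10.5 and 21.4 CPM in erythroid-like nuclei, and its log2 fold change was 2.33 (SE 0.40, adjusted p = 5.9e-08). Pcdhac1 had 0, 1.82 and 0 CPM there (4.29, SE 0.84, adjusted p = 1.8e-06). Pcdhgc4 had 0, 3.19 and 0 CPM (3.598, SE 0.72, adjusted p = 3.5e-06), and Pcdhac2 had 0, 2.73 and 0 CPM (2.87, SE 0.82, adjusted p = 0.00176). A count of 0 allows up to 36.2 CPM at E12.5 and 21.4 at E15.5 in these nuclei. Without E13.5 the calls of Pcdhgc3, Pcdhac1 and Pcdhac2 were lost, and that of Pcdhgc4 was kept. The neuron-like libraries of Pcdhgc3, Pcdhac1, Pcdhgc4 and Pcdhac2 all lay above the erythroid-like ones. Pcdhgc5 did not pass (1.83, adjusted p = 0.0530).

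The other members that passed were variable gamma genes. Pcdhga10 and Pcdhga3 had 22 fragments each in neuron-like and 1 each in erythroid-like nuclei, a ratio of 15.3 (2.47 to 631). Pcdhga7 had 16 and 1, a ratio of 11.1 (1.73 to 466), and Pcdhga11 had 44 and 8 (log2 fold change 2.08, SE 0.87, adjusted p = 0.0446). Of the 12 variable alpha genes only Pcdha11 had the 30 fragments over all groups needed to enter the test. It did not pass (log2 fold change 2.03, adjusted p = 0.184), and the others were not tested. Without E13.5 a single member passed, Pcdhgc4, and without E15.5 there were 3 (Pcdhac1, Pcdhgc3 and Pcdhgc4). Pcdhgc4 passed under all 15 alternatives run, Pcdhgc3 and Pcdhac1 under 14 and Pcdhac2 under 13. Of the variable gamma genes, Pcdhga10 kept its call in 11 of 13 alternatives with an adjusted p, Pcdhga3 in 11 of 14, Pcdhga7 in 3 of 12 and Pcdhga11 in 5 of 15, and DESeq2 called none of Pcdhga3, Pcdhga7 and Pcdhga10, giving no adjusted p for the last 2.

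**Figure D2:**
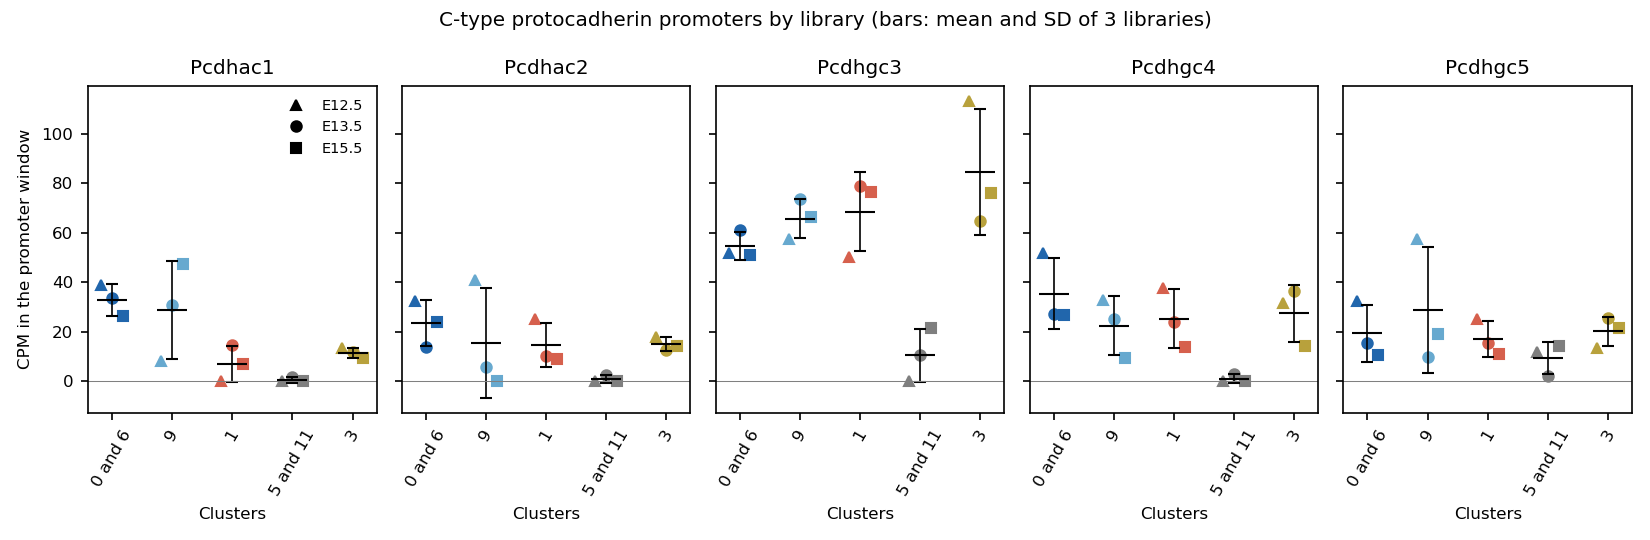
Points give CPM in the promoter window of the 5 C-type genes in each library (triangle E12.5, circle E13.5, square E15.5) by cluster, with the mean and SD of the 3 libraries in black. The neuron-like points of Pcdhac1 (26.2 to 39.0) lie above those of clusters 1 and 5 with 11 but overlap those of cluster 9 (8.21 to 47.4), and Pcdhgc3 is high in every group but the erythroid-like one.

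Among the 21 members tested, the progenitor-like nuclei differed from both neuron-like and mesenchyme-like nuclei at 1 promoter, that of Pcdhgb7, a variable gamma gene that starts at position 37751600. It had 2, 7 and 10 fragments in progenitor-like nuclei, or 16.4, 13.52 and 47.4 CPM (25.8 ± 18.8), and 6.49, 4.91 and 3.67 CPM in neuron-like nuclei. In mesenchyme-like nuclei it had 0, 5.15 and 1.99 CPM. The progenitor-like libraries lay above all those of the other 2 groups. The log2 fold change of neuron-like against progenitor-like nuclei was -2.49 (SE 0.80, adjusted p = 0.0496), where 0.861% of all promoters were higher and 2.21% lower. Progenitor-like against mesenchyme-like nuclei gave 2.91 (SE 0.87, adjusted p = 0.0238), where 2.37% were higher and 1.40% lower. Both calls were lost without E15.5 (-1.52, adjusted p = 0.856, and 1.73, adjusted p = 0.812) and when the window was widened to 1000 bp on either side. Without E13.5 the promoter had too few fragments to be tested. The call against neuron-like nuclei held in 5 of 13 alternatives with an adjusted p, and DESeq2 gave none there. It was also lost without the library block, without a filter on low counts, with the start of the gene record, with nuclei of at least 3000 fragments and with cluster 0 or 6 alone. The call against mesenchyme-like nuclei held in 12 of 14. Over the alternatives that gave one, the adjusted p ran from 0.0232 to 0.856 against neuron-like nuclei and from 0.0212 to 0.812 against mesenchyme-like nuclei. Pcdhga8, which had too few fragments to be tested, also had every progenitor-like library above those of both other groups, on 6 fragments in progenitor-like nuclei, 11 in neuron-like and 1 in mesenchyme-like nuclei. In cluster 3 Pcdhgb7 had 9.06, 19.99 and 4.76 CPM.

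The windows were also compared, after the data were seen, with the same length of sequence upstream, from 3100 to 2000 bp before each start. In neuron-like nuclei the 14 alpha promoters held 5.76 (4.29 to 7.86) times as many fragments as their flanks, 13.46 (7.67 to 25.8) times for the C-type pair and 3.25 (2.27 to 4.76) times for the variable genes. In mesenchyme-like nuclei the variable alpha promoters had a ratio of 1.83 (0.869 to 4.06), and in erythroid-like nuclei 1.10. The variable alpha windows thus exceeded their upstream flanks by more than counting error in neuron-like nuclei. Downstream, the first exons were themselves accessible: over 2000 bp on either side of the starts, 29.3% of the neuron-like insertions of the variable alpha genes and 25.9% of those of the variable gamma genes fell in the window, which makes up 27.5% of that length. A difference between the groups in this ratio was not tested. In the gamma array the ratio was 1.92 (1.68 to 2.20) in neuron-like and 3.19 (2.62 to 3.91) in mesenchyme-like nuclei. In erythroid-like nuclei all 3 subfamilies lay near 1, with 1.19 (0.688 to 2.06) for alpha, 0.95 for beta and 1.13 for gamma. Of the 57 single promoters, 4 had an interval above 1 in these nuclei and 2 had one below 1. The 4 were Pcdhgb4, Pcdhga9, Pcdhgb6 and Pcdhgc3. In neuron-like nuclei 19 were above 1 and 0 below. Among single genes Pcdhac1 had a ratio of 17.3 and Pcdhac2 of 10.1 in neuron-like nuclei, Pcdhgc3 of 4.92, and Pcdhgc5 of 0.691 (0.466 to 1.02). The upstream flank of Pcdhgc5 lies within the first exon of Pcdhgc4, and the closely spaced gamma genes share this limit. Closely spaced beta genes share it too, such as Pcdhb18, whose flank lies within the exon of Pcdhb17.

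**Figure D3:**
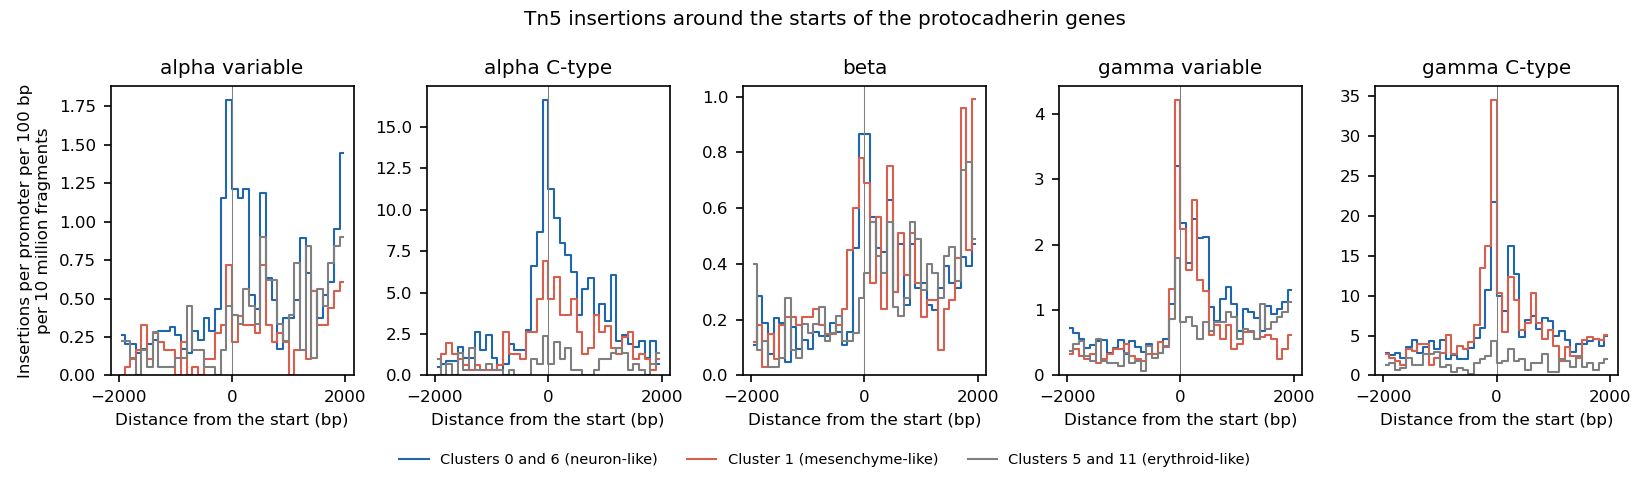
Lines give transposase insertions per promoter in steps of 100 bp, per 10000000 fragments, from 2000 bp before to 2000 bp after the start, for 3 groups of nuclei. In neuron-like nuclei the highest step lies within 100 bp before the start in all 5 sets, whereas erythroid-like nuclei peak between 500 and 600 bp after it for the variable alpha genes, and the vertical scales differ between panels.

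At the level of single nuclei a fragment at any alpha promoter was rare. After thinning each nucleus to 10000 fragments, 39 of 390 neuron-like nuclei (10.0%, 7.21 to 13.4) had at least 1, against 3 of 251 mesenchyme-like (1.20%) and 2 of 209 erythroid-like nuclei (0.957%). The share was 4 of 80 progenitor-like nuclei (5%, 1.38 to 12.3), whose interval overlaps the neuron-like one, and 3.85% in cluster 3. Of the 39 neuron-like nuclei, 2 had fragments at 2 or more alpha promoters. The share for the gamma promoters was 24.4% in neuron-like, 30% in progenitor-like (24 of 80 nuclei), 23.9% in mesenchyme-like and 6.70% in erythroid-like nuclei. Without thinning, 160 of 401 neuron-like nuclei (39.9%) had a fragment at an alpha promoter and 48 had fragments at 2 or more, at a median depth of 64329 fragments. The unthinned share was 34.6% in progenitor-like, 30.3% in cluster 3, 15.3% in mesenchyme-like and 9.61% in erythroid-like nuclei, at median depths of 72286, 105158, 57306 and 47327 fragments. The thinned shares of mesenchyme-like and erythroid-like nuclei rest on 3 and 2 nuclei in 1 random draw of fragments. A nucleus without a fragment may still have an open promoter, so the combination of promoters used by a nucleus could not be read at this depth.

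Stages could be compared only by counts, since each had 1 library, and no test between stages was made. In neuron-like nuclei the ratio of E15.5 over E13.5 was 1.05 (0.827 to 1.34) for the alpha sum, 1.35 (0.916 to 2.02) for beta and 0.871 (0.741 to 1.02) for gamma. Each of these intervals includes 1. The same ratio for the alpha sum was 1.42 (1.01 to 2.02) in cluster 0 and 0.706 (0.449 to 1.09) in cluster 6. Of the C-type genes, Pcdhac1 was at 0.779 (0.514 to 1.18) and Pcdhac2 at 1.72 (0.997 to 3.07).

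Beyond the promoters, fragments were counted in 203 bins of 5 kb over the locus and 50 kb on either side of it, in CPM of all fragments in bins. The median bin of the locus was lower than that of the genome, at 0.728 CPM in neuron-like nuclei against 1.21 over all bins, 0.528 against 1.06 in mesenchyme-like nuclei and 0.675 against 0.945 in erythroid-like nuclei. Accessibility differed along the locus. Per bin, the stretch of alpha first exons had a ratio of neuron-like to mesenchyme-like nuclei of 1.91 (1.72 to 2.13), and the stretch between the last alpha exon and the first beta gene had 3.90 (3.25 to 4.72). The beta genes stood at 1.01 (0.894 to 1.15) and the gamma first exons at 1.18. The 3 bins from 37825001 to 37840000, which hold the first and second gamma constant exons and only the start of the last, went the other way, at 0.577 (0.515 to 0.647). The next bin, with nearly all of the last exon, stood at 0.945 (0.841 to 1.06).

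**Figure D4:**
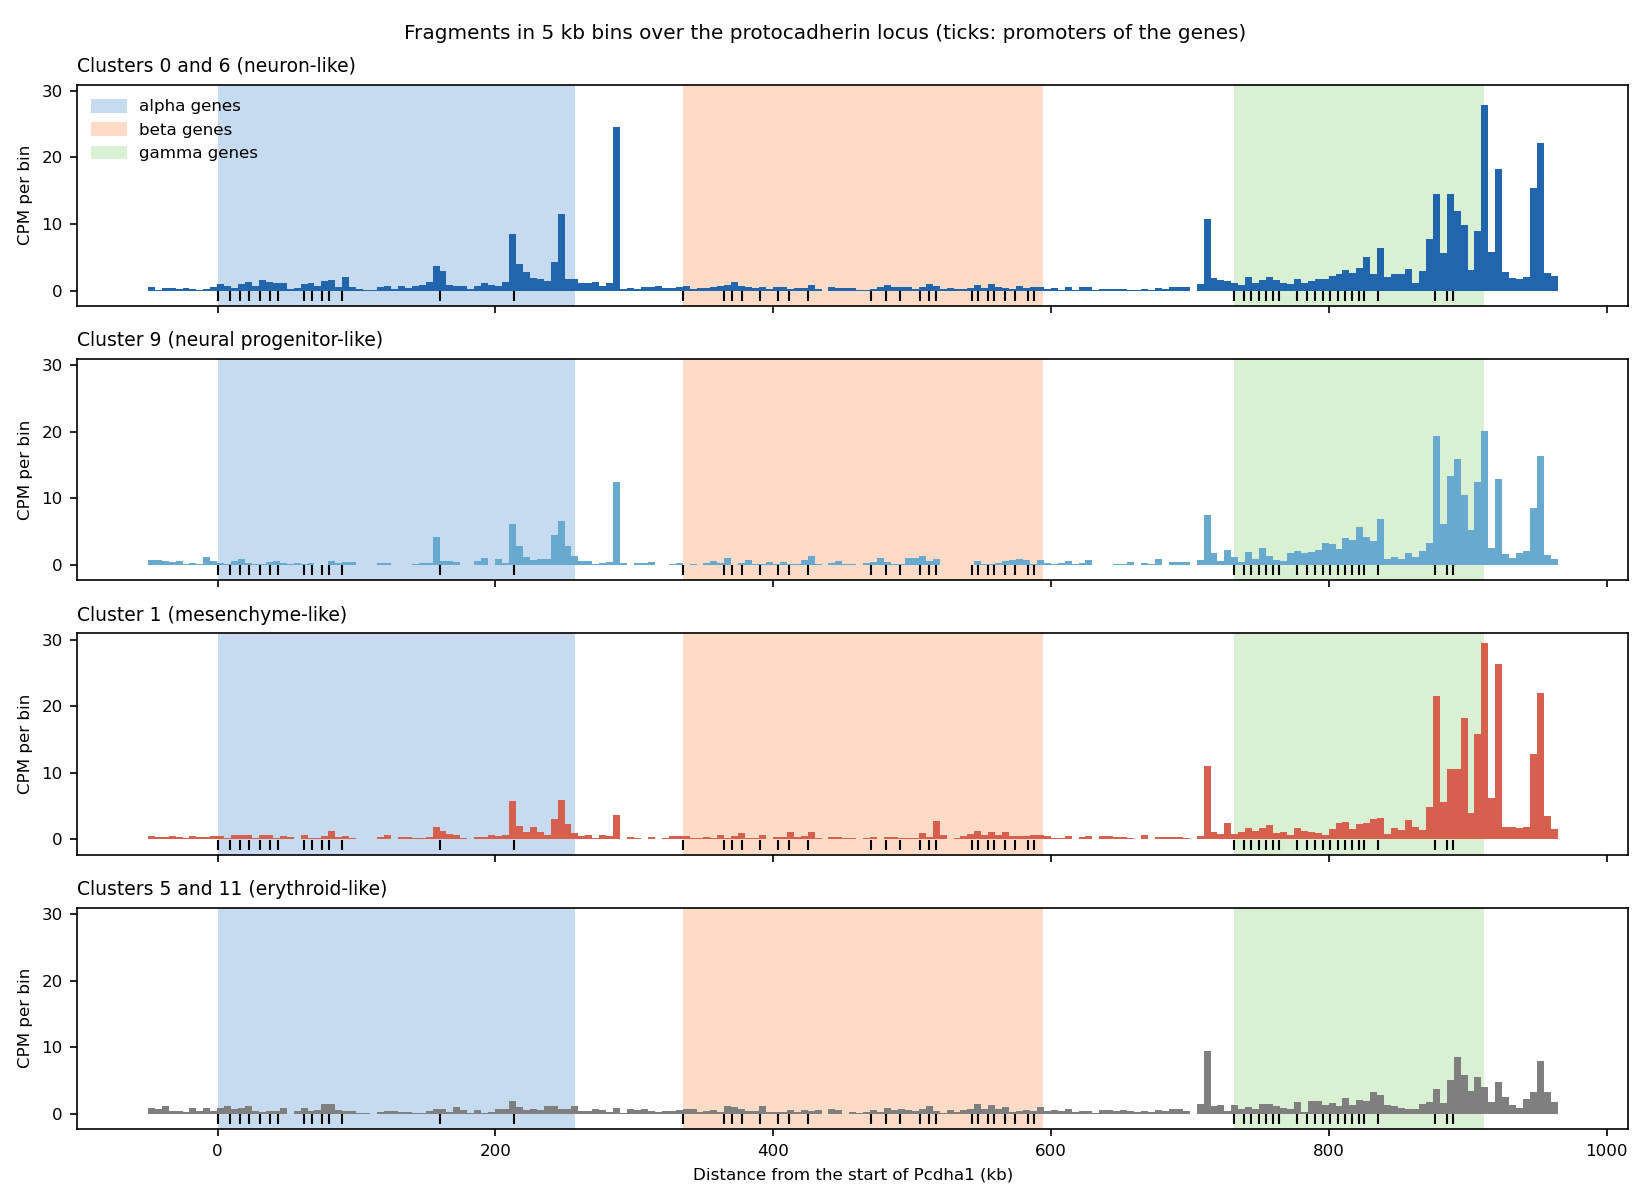
Bars give CPM in 5 kb bins (pooled libraries, per 1000000 fragments in bins) against the distance from the start of Pcdha1 in kb, with shading for the spans of the alpha, beta and gamma genes and ticks for the promoters. In neuron-like nuclei the bin 284.7 kb from that start, between the alpha and beta genes, reaches 24.6 CPM, against 3.70 in mesenchyme-like nuclei.

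The signal of that stretch came mostly from a single bin, chr18:37215001-37220000, which lies 284.7 kb from the start of Pcdha1 between the last alpha exon and Pcdhb1. The bin holds no exon of a member, but it lies within 3 long gene records without a given name, Gm42416, Gm37013 and Gm37388. These start among the alpha genes and end among the gamma exons, and the positions of their own exons were not checked. It had 19.2, 21.4 and 27.9 CPM in the 3 neuron-like libraries, 13.7, 4.19 and 2.09 in the mesenchyme-like ones and 0, 0.885 and 0 in the erythroid-like ones. Progenitor-like nuclei had 8.56, 16.8 and 4.05 CPM. The neuron-like libraries lay above those of each of these groups. Within the bin 42.2% of the neuron-like fragments fell in the 500 bp from 37218001 to 37218500, and 26.0% in those from 37217001 to 37217500. Of the 178 locus bins tested, this was the only one that passed against mesenchyme-like nuclei (log2 fold change 2.46, SE 0.48, adjusted p = 0.00064), where 0.140% of 475513 bins were higher and 0.289% lower. The call was lost without E13.5 (adjusted p = 0.331) and without E15.5 (adjusted p = 1.0), and the pooled ratio was 6.65 (5.06 to 8.89). It was as high in cluster 0 (25.5 CPM) as in cluster 6 (22.8), and between 1.40 and 3.23 in clusters 3, 7, 8 and 10.

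Against erythroid-like nuclei 8 of these bins were higher and 0 lower, where 0.868% of all bins were higher and 0.791% lower. The bin at 284.7 kb had a log2 fold change of 5.06 (SE 0.64, adjusted p = 9.0e-12). A bin in the intron of the alpha genes after the last C-type start, chr18:37175001-37180000, had 13.2, 11.1 and 11.6 CPM in neuron-like nuclei, 10.3, 6.59 and 4.50 in mesenchyme-like nuclei and 0, 0.738 and 1.65 in erythroid-like nuclei. Its neuron-like libraries were above those of both other groups, and against erythroid-like nuclei the log2 fold change was 3.83 (SE 0.68, adjusted p = 8.9e-06). The other bins lay at the gamma end of the locus or beyond it, and 2 of them were wholly past the last gamma exon, within the gene record of Diaph1. The bin with the last gamma constant exon, which also holds the end of the neighbouring gene Diaph1, was the highest of the locus in neuron-like nuclei by mean, with 29.4, 25.6 and 29.5 CPM. Within it 31.5% of the neuron-like and 43.3% of the mesenchyme-like fragments fell from 37842001 to 37842500, between the exon and Diaph1. The bin was as high in mesenchyme-like nuclei (30.9, 28.8 and 30.2), and it was the erythroid-like value that stood apart (1.54, 4.13 and 3.30, log2 fold change 2.96, SE 0.41, adjusted p = 1.5e-09). The bin with the start of Pcdhgc3 had a log2 fold change of 1.99 (SE 0.44, adjusted p = 0.0010). Without E13.5 only 2 bins passed, those at 284.7 and 909.7 kb, and without E15.5 there were 4. Against progenitor-like nuclei edgeR called 0 bins of the locus, with 19 of 178 passing 0.05 before adjustment (17 higher, 2 lower), where 29268 of 475513 bins did so, and DESeq2 called 0 as well. By adjusted p, 0.00484% of all bins were higher and 0.0660% lower.

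**Figure D5:**
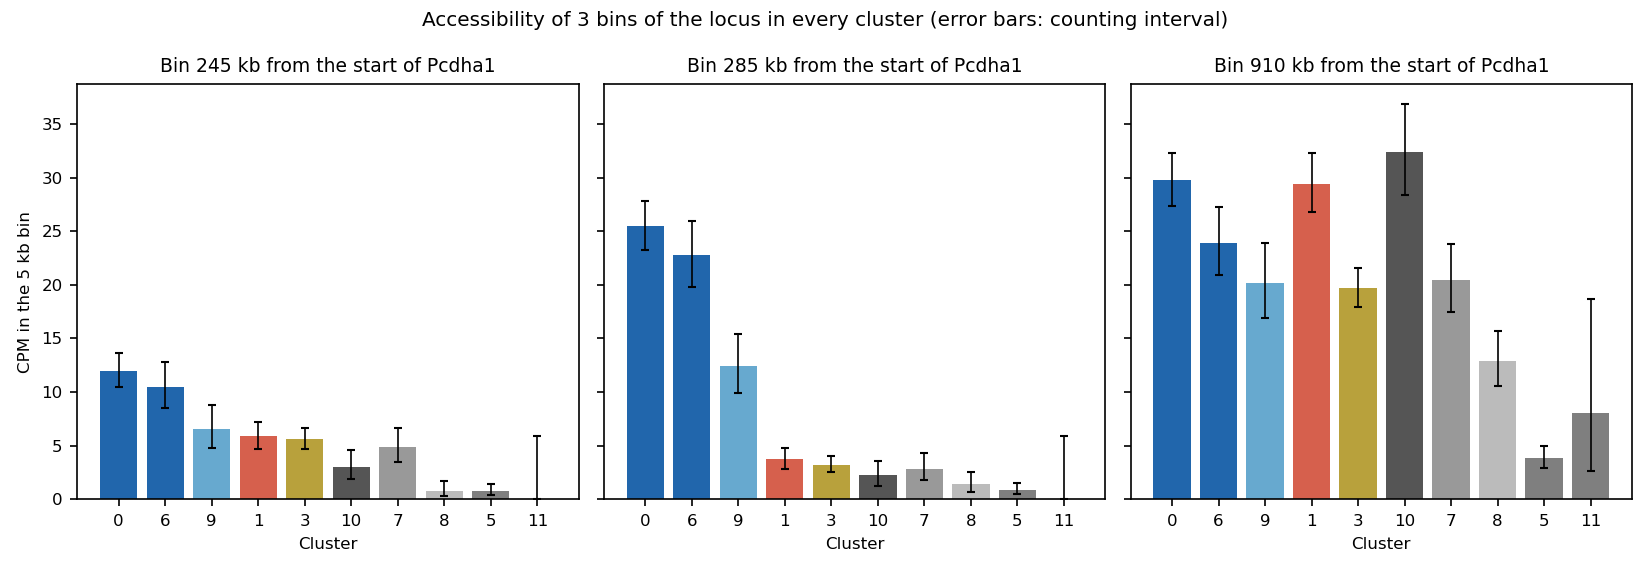
Bars give CPM in 3 bins of 5 kb for each of 10 clusters, with exact 95% counting intervals, at 244.7, 284.7 and 909.7 kb from the start of Pcdha1. The middle bin is at 25.5 and 22.8 CPM in clusters 0 and 6, and the last is at 3.81 CPM in the erythroid-like cluster 5 and at 12.9 or more in every cluster other than 5 and 11.

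Genes related to the family by function were followed at their own promoters, on lists chosen with earlier results of these data known. Of 12 non-clustered protocadherins tested, which lie outside the locus and have their own constant parts, 4 were higher and 1 lower in neuron-like than in mesenchyme-like nuclei (median log2 fold change 0.40, against 0.08 over all promoters, of which 5.36% were higher and 5.52% lower). Pcdh8 rose by a log2 fold change of 1.46 (adjusted p = 7.4e-05) and Pcdh18 fell by 1.55 (adjusted p = 1.1e-06). Of 12 neuronal adhesion genes 6 were higher and 0 lower (median 1.14), among them Celsr3, a seven-pass cadherin of axon guidance (2.11, adjusted p = 1.9e-09). None of 11 genes for CTCF and the cohesin complex passed in that comparison by edgeR, and 5 of them were lower against erythroid-like nuclei, among them Ctcf (-0.63, adjusted p = 0.0094). Of 12 genes of DNA methylation and silencing 2 were lower than in mesenchyme-like nuclei. These were Uhrf1, which guides maintenance methylation (-1.53, adjusted p = 1.7e-05), and Rest, a repressor of neuronal genes (-1.27, adjusted p = 0.0002). Against erythroid-like nuclei Uhrf1 was lower (-2.41, adjusted p = 1.9e-13), as was Smchd1, a silencing protein known to act on this locus (-0.52, adjusted p = 0.034). Dnmt3a (1.45, adjusted p = 5.8e-06) and Tet2 (1.28, adjusted p = 4.2e-05) were higher there. Against erythroid-like nuclei 9 of the 12 non-clustered protocadherins and 9 of the 12 neuronal adhesion genes were higher and 0 of either list lower, and 2 silencing genes were higher and 2 lower, where 21.6% of all promoters were higher and 11% lower. Against progenitor-like nuclei 1 non-clustered protocadherin, Pcdh18, and 2 silencing genes were lower, and Celsr3 was higher, where 0.861% of all promoters were higher and 2.21% lower. The 6 genes next to the locus and 4 other genes tested within it had 0 calls in all 4 comparisons. One of the latter, Taf7, which sits between the beta and gamma genes and encodes a general transcription factor, had 72.3 CPM in neuron-like, 69.7 in mesenchyme-like and 50.0 in erythroid-like nuclei.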

How the data were processed

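Single-nucleus ATAC-seq was deposited as 1 fragment file per library and 1 table of nuclei with cluster numbers. Per the file headers and the labels, the authors made the fragments with Cell Ranger ATAC 2.0.0 on mm10 and processed nuclei with Seurat 4.1.0 and Signac 1.6.0, and the study's methods left the protocadherin genes out of its gene activity assay. Each deposited line gives a unique fragment with its count of read pairs, and the authors' table gives counts of fragments that passed filters. Its 20 other columns were not used. No doublet caller was run here. The deposited libraries hold 9402554, 87687839 and 53120243 unique fragments.

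Here, fragments that overlapped a promoter window (GENCODE release 21 of the mouse annotation, principal transcript) were summed per cluster group and library. For the 5 kb bins each fragment was counted once, in the bin of its midpoint. CPM were computed from these sums. Sums were tested with edgeR 4.0.16 (TMM, quasi-likelihood, library block; R 4.3.3) on features with at least 30 fragments, with Benjamini-Hochberg adjustment and a threshold of 0.05, after the fit was tested on simulated data. DESeq2 1.42.0, other scalings, filters, windows, starts, bin grids, nuclei and left-out libraries were alternatives, and those without cluster 11, with cluster 0 or 6 alone, and sums without a library were chosen after seeing the data. The comparison with upstream flanks was also added after seeing the data. Intervals were computed with SciPy 1.17.1 and figures drawn with matplotlib 3.10.9 (Python 3.11.15). Genes named were the 5 C-type genes, the 3 highest and 3 lowest of each subfamily by mean CPM in neuron-like nuclei, and the 5 features of smallest p in each direction among those that passed. Up to 4 genes of smallest p came from each other list. Other members named in the text were chosen after their values were seen. Members and lists were chosen with earlier results of these data known. No sequence of the locus is shown here.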

Additional observations from a re-analysis of the deposited data

Results flagged for a closer look

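Fragments at the member promoters were also found in nuclei and barcodes that entered no comparison. Their promoters summed to 273.5, 521.5 and 288.1 CPM in cluster 2 at the 3 stages in order (5, 53 and 22 fragments), and to 673.3 CPM in cluster 4 at E15.5, on 4 fragments. Barcodes outside the table of nuclei had 179.3, 473.3 and 481.4 CPM in the same order. Each of these sums rests on more than 3 fragments, the most that a count of 0 was taken to allow. That does not set them apart from background, and they were not compared with the sums of the nuclei used.

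The ratio of E15.5 over E13.5 went in opposite directions between clusters in 3 of the bins examined by stage, each by counting intervals alone. In the bin between the alpha and beta genes 284.7 kb from the start of Pcdha1 it was 1.303 (1.11 to 1.53) in neuron-like nuclei, 0.2406 (0.0852 to 0.552) in the progenitor-like cluster 9 and 0.4986 (0.242 to 0.966) in the mesenchyme-like cluster 1. In the bin with the start of Pcdhgc3 it was 0.7995 (0.652 to 0.981) in neuron-like nuclei, and 1.437 (1.09 to 1.87) in cluster 3, 2.31 (1.49 to 3.57) in cluster 10 and 1.56 (1.02 to 2.46) in cluster 7. In the bin at 949.7 kb, in the gene record of Diaph1 and described only here, it was 0.705 (0.502 to 0.972) in cluster 3, and 2.504 (1.05 to 5.17), 1.46 (1.01 to 2.11) and 1.59 (1.06 to 2.39) in clusters 5, 8 and 10, while cluster 11 had 0 fragments at E15.5 and 22 at E13.5. With 1 library per stage these differences were not tested.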

How the results depend on the processing

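Fragments per promoter, 1 library per stage and the few nuclei of E12.5 limit all values, and a library is also a stage. Of members called against mesenchyme-like nuclei (1), the count was 2 with 1000 bp on either side and 0 with cluster 0 alone, with cluster 6 alone or with any library left out (0 to 0). Against erythroid-like nuclei (8) it was 5 with DESeq2, 5 with cluster 0 alone and 1 to 7 with a library left out. Against progenitor-like nuclei (1) it was 0 with 1000 bp on either side, DESeq2, cluster 0 alone, cluster 6 alone, no filter on low counts, nuclei of at least 3000 fragments or the start of the gene record, and 0 to 1 with a library left out. Here DESeq2 gave no adjusted p for Pcdhgb7, and without E13.5 it could not be tested. For progenitor-like against mesenchyme-like nuclei (1) it was 0 with 1000 bp on either side and 0 to 1 with a library left out. Without the replicate block, here the library, which pairs the groups because their nuclei come from the same library, the count against progenitor-like nuclei was 0, that against erythroid-like nuclei 7, and the called bins against erythroid-like nuclei 6. Bins called against mesenchyme-like nuclei (1) were 2 with bins shifted by 2500 bp and 0 to 1 with a library left out, and those against erythroid-like nuclei (8) were 17 with DESeq2 and 2 to 8 with a library left out. Neuron-like nuclei with a fragment, unthinned, were 39.9% for alpha, 21.7% for beta and 68.3% for gamma. The ratio to erythroid-like nuclei with a library left out was 6.38 to 9.98 for alpha and 1.82 to 8.89 for beta, and for beta 1.56 as a mean over nuclei. The upper values, those without E13.5, rest on few erythroid-like nuclei and have no interval. The gamma ratio to mesenchyme-like nuclei was 0.813 per all fragments and 1.18 with 1000 bp on either side, and to erythroid-like nuclei 2.54 per all fragments. The causes were not tested. The other 118 values of counts and sums stayed within 1.5 times or within their interval, and of the values for single genes and bins that had passed the threshold, 178 kept their direction and side of it, 59 kept their direction only, and 0 reversed. These counts leave out the shifted bins, and alternatives in which a feature could not be tested or had no adjusted p. Values that had not passed are also left out, and some changed sign, such as Pcdhac1 against progenitor-like nuclei (-0.31 to 0.61 on the log2 scale).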
